A study of Homo sapiens with 6 samples.

Results

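Lysyl oxidases and collagen hydroxylases are the enzymes that modify collagen chains before and after secretion, and 10 of their genes were followed here out of the 60691 genes in the deposited table. They were matched by symbol: the lysyl oxidase genes LOX, LOXL1, LOXL2, LOXL3 and LOXL4, the lysyl hydroxylase genes PLOD1, PLOD2 and PLOD3, and the prolyl hydroxylase subunit genes P4HA1 and P4HA2. RNA had been sequenced from SW1353, an established human chondrosarcoma line, in 6 libraries: 3 from cells carrying a lentiviral short hairpin RNA named shSIRT1, and 3 from cells carrying the control hairpin shfirefly, which targets firefly luciferase. Both groups were kept at 3% oxygen, with 48 h recorded as the time after seeding. Hypoxia was thus shared, and no library at ambient oxygen was analysed here. All values come from 1 line and 1 SIRT1 hairpin name, and the study asked what part SIRT1 has in gene expression under HIF-2α, an oxygen-regulated transcription factor subunit whose gene is EPAS1.

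Collagen chains are hydroxylated on prolines and lysines inside the endoplasmic reticulum. The prolyl hydroxylation, done by an alpha subunit (P4HA1, P4HA2 or P4HA3) together with the P4HB subunit, lets the triple helix hold at body temperature. The lysyl hydroxylation, done by the PLOD enzymes, sets which kind of crosslink can form. Both reactions need oxygen, iron, oxoglutarate and ascorbate. Outside the cell the copper-dependent lysyl oxidases turn lysines and hydroxylysines into aldehydes, which then join neighbouring collagen or elastin molecules. LOX, LOXL2, PLOD2, P4HA1 and P4HA2 are textbook hypoxia-induced genes, and stiff crosslinked matrix is a feature of many tumours.

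The promoters of LOX, PLOD2, P4HA1 and P4HA2 are shown because these genes are known to respond to oxygen and all of them fell in shSIRT1 cells, as described below. Each line holds the 250 bases before the most upstream RefSeq start of the gene on GRCh38.p14, read 5′ to 3′ on the gene's strand. Capitals mark ACGTG or GCGTG, the core letters bound by hypoxia-inducible factors, on either strand (CACGT and CACGC on the other). All 4 genes lie on the minus strand, and the windows are chr5:122078260-122078509 for LOX, chr3:146161185-146161434 for PLOD2, chr10:73096867-73097116 for P4HA1 and chr5:132227092-132227341 for P4HA2.
LOX: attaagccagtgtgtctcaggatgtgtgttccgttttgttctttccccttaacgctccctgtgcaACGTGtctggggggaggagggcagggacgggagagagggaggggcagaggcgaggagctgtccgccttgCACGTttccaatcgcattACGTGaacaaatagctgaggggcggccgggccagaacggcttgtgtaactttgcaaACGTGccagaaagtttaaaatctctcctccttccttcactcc
PLOD2: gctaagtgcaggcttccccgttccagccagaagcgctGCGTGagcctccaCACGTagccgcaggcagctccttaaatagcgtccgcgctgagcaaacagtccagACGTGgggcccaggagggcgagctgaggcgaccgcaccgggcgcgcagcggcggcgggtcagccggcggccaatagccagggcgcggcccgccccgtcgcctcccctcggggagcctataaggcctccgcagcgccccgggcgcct
P4HA1: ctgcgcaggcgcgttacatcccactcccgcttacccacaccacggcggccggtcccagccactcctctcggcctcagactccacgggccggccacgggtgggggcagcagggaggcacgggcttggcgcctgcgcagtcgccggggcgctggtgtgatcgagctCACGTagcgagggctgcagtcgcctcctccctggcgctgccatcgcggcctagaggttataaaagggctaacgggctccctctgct
P4HA2: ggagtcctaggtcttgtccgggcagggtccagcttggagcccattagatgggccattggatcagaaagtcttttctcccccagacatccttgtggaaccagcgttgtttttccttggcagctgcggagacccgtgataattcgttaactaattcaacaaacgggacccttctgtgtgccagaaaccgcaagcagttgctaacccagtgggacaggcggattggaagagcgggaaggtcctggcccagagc

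The LOX window held 4 matches, all of them ACGTG or its complement, whose first bases lay at positions -185, -116, -98 and -42 from the start. The PLOD2 window held 3, at -213, -200 and -146, and the P4HA1 window held 1, at -86. No match was found in the P4HA2 window. That window lies inside the gene's span in the GENCODE annotation, which on the minus strand begins at 132295315. The bases before that GENCODE start were not searched. Other windows, that of PLOD2 among them, also lie inside their gene's span. Of the 9 members with a RefSeq window, 4 (44.4%) had a match, PLOD1 being the other with 2 GCGTG matches at -68 and -25, while LOXL1, LOXL3, LOXL4, PLOD3 and P4HA2 had none. Among 11139 tested genes with a window 6251 (56.1%) had a match. Windows with 3 or more matches made up 22.2% of the members' (LOX and PLOD2) and 11.8% of the tested genes', and those with 4 or more 11.1% (LOX) and 4.96%. ACGTG stood in 33.3% of the members' windows and 23.0% of the tested genes', and GCGTG in 22.2% and 44.4%. With 9 windows these shares were not tested. Among all 35116 windows of the table the share with ACGTG or GCGTG was 43.2%. Later RefSeq starts of LOX gave 2 matches each, the same sites seen in overlapping windows. A later start of LOXL3 gave 1 match, at -246. Such matches describe the letters only; binding was not measured. The bases after the start of LOX, P4HA1 and P4HA2 were also found in a GENCODE transcript of the gene; those after the PLOD2 start were not.

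The total counts ran from 24993064 to 29564361 in shSIRT1 libraries and from 28556696 to 32044191 in shfirefly libraries. The hairpin's named target was lower in every shSIRT1 library: SIRT1 stood at 12.9, 13.2 and 14.7 CPM (counts per library, scaled by TMM factors to a shared total) in shSIRT1 and at 25.99, 24.8 and 24.03 CPM in shfirefly. EPAS1, which the treatment protocol names in place of SIRT1, stood at 245, 226 and 227 CPM in shSIRT1 and at 477, 483 and 409 CPM in shfirefly, so these levels fit either name. Chondrocyte genes were sparse in both groups: 6 of 15 markers had at least 10 counts in every library, SOX9 at 51.8, 54.02 and 53.6 CPM in shSIRT1 and 42.9, 46.5 and 41.6 CPM in shfirefly being the most abundant, while COL9A1 had no counts. COL2A1, the defining cartilage collagen gene, had 8, 19 and 3 counts in shSIRT1 libraries and 2, 1 and 0 in shfirefly libraries. Other markers, named after their values were seen, went the other way. HAPLN1 was at 4.69, 3.69 and 4.47 CPM in shSIRT1 and 7.52, 8.77 and 7.94 CPM in shfirefly. ACAN had 25, 14 and 20 counts in shSIRT1 and 56, 36 and 43 in shfirefly. Of 6 chondrocyte markers tested 2 fell, 3 rose and 1 did not pass, against 26.0% lower and 26.8% higher over all tested genes. Summed marker levels were 64.96 to 66.2 CPM in shSIRT1 and 56.5 to 62.999 CPM in shfirefly for chondrocytes, against 19598 to 20651 CPM and 31299 to 34628 CPM for mesenchymal cells. Epithelial markers summed to at most 3.10 and 2.55 CPM, haematopoietic markers to at most 0.913 and 0.962 CPM and endothelial markers to at most 3.097 and 4.29 CPM in shSIRT1 and shfirefly libraries.

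Expression of the collagen-modifying enzymes was lower across all 3 enzyme classes in shSIRT1 cells. Of the 9 members abundant enough to be tested, 8 fell and none rose, while LOXL1 did not pass the test; LOXL4 was too low to be tested. Over all 16591 genes tested 26.0% were called lower and 26.8% higher at an adjusted p under 0.05 (edgeR's quasi-likelihood test, Benjamini-Hochberg over all of them), 52.8% in all. The median log2 fold change of shSIRT1 over shfirefly was -0.90 over the 9 members and 0.0047 over all genes tested. The 8 called members had CPM ranges that did not overlap between the groups, every shSIRT1 library lying below every shfirefly library; 29.4% of all tested genes showed that, and 30.4% showed the opposite, which no member did. LOX, LOXL3 and P4HA2 fell by at least 2-fold, a size that 4.26% of tested genes reached; P4HA2 was close to that line and dropped out without shSIRT1 replicate 3 (-0.996) or shfirefly replicate 2 (-0.98), and the GC content and length offset put PLOD2 and P4HA1 in its place. Scaled by library totals alone, 3021 genes were called lower and 6225 higher, against 4311 and 4449 with TMM, the median of all genes moved to 0.13, 8 members fell, and LOX alone of them reached 2-fold (LOXL3 at -0.98 and P4HA2 at -0.89 on the log2 scale). As these are bulk libraries, fewer cells that make an enzyme and less RNA per cell cannot be told apart.

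**Figure D1:**
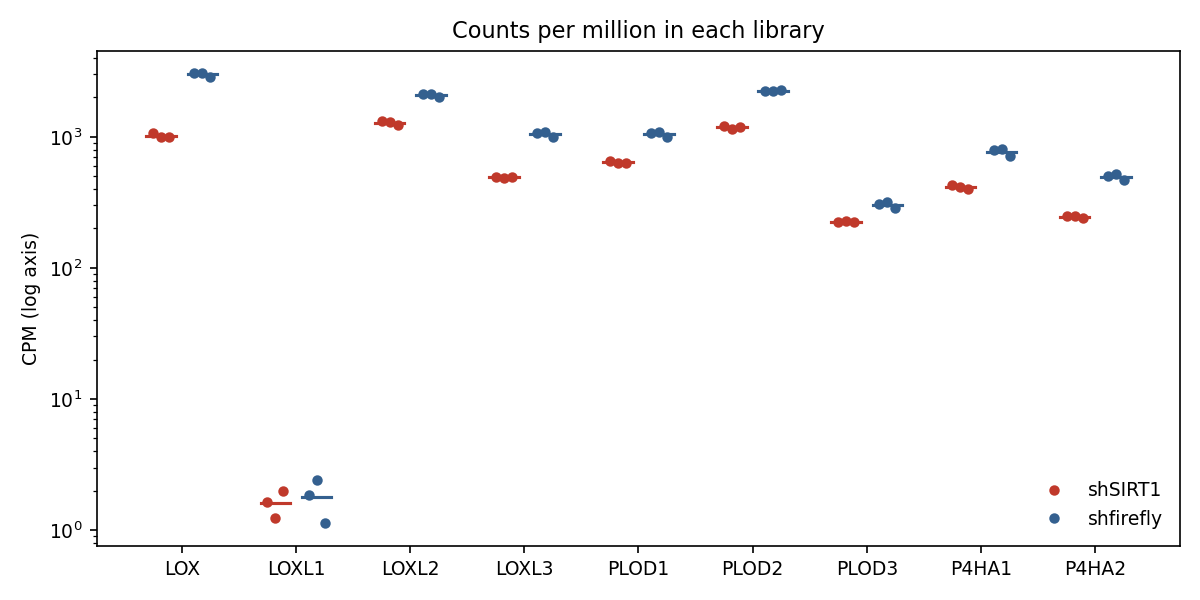
CPM of the 9 tested genes in each of the 6 libraries, on a log axis, with shSIRT1 libraries left of shfirefly libraries for each gene; points are libraries and bars are group means. The 3 shSIRT1 points lie below the 3 shfirefly points for every gene except LOXL1, whose points at 1.13 to 2.40 CPM are mixed.

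LOX, the founding lysyl oxidase and the family's main collagen and elastin crosslinker, had the largest fall of the members. It was at 1063, 993 and 1006 CPM in shSIRT1 libraries and at 3056, 3054 and 2862 CPM in shfirefly libraries, so the highest shSIRT1 library was well under the lowest shfirefly library. The means were 1021 ± 36.9 and 2991 ± 111 CPM (SD, n = 3), which put shSIRT1 2.93-fold lower, at a log2 fold change of -1.55 ± 0.04 (SE; edgeR adjusted p = 2.3e-17). Only 258 of the tested genes (1.56%) had a lower log2 fold change. By mean CPM LOX ranked 77 among tested genes in shSIRT1 and 25 in shfirefly. LOX lies on chromosome 5, reverse strand, at 122063195 to 122078360 (GRCh38, as all gene positions here), and LOXL2 on chromosome 8, reverse strand, at 23297189 to 23425328.

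LOXL2, a secreted and partly intracellular lysyl oxidase that crosslinks basement membrane collagen, fell less than LOX. It stood at 1321, 1297 and 1235 CPM in shSIRT1 and at 2137, 2128 and 1996 CPM in shfirefly. The groups did not overlap, and shSIRT1 was 1.62-fold lower, at a log2 fold change of -0.70 ± 0.04 (SE; edgeR adjusted p = 2.9e-12). LOXL3, a close relative of LOXL2 needed for cartilage and palate development in mice, stood at 495, 487 and 491 CPM in shSIRT1 and at 1072, 1080.01 and 1004 CPM in shfirefly. Its groups were also far apart, shSIRT1 being 2.14-fold lower (log2 fold change -1.10 ± 0.04 SE, adjusted p = 1.8e-15, edgeR). LOXL3 lies on the reverse strand of chromosome 2 at 74532414 to 74555690.

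LOXL1 was expressed at a low level and LOXL4 was at the limit of detection. LOXL1, which crosslinks elastin in particular, had 50, 38 and 52 counts in shSIRT1 libraries and 57, 65 and 35 in shfirefly libraries. The groups overlapped, and the log2 fold change of -0.15 ± 0.26 SE did not pass the test (adjusted p = 0.66, edgeR), which at this depth leaves a change of either sign possible. LOXL1 turned to 0.0017 with an offset for GC content and length, to 0.015 without shSIRT1 replicate 2 and to 0.11 without shfirefly replicate 2. LOXL4 had no counts in the 3 shSIRT1 libraries and 1 count in the shfirefly libraries together; a count of 0 allows up to 0.0978, 0.0979 and 0.115 CPM in the shSIRT1 libraries (3 counts per library, counting error only). The long noncoding antisense gene LOXL1-AS1, which shares 335 exon bases with LOXL1, had 1264, 1240 and 1118 counts in shSIRT1 and 1792, 1532 and 1767 in shfirefly, and fell (log2 fold change -0.47 ± 0.05 SE, adjusted p = 5e-08, edgeR).

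The make-up of the lysyl oxidase family also shifted. Levels per exon length (CPM per kb) summed to 522 ± 13.5 in shSIRT1 and 1147 ± 43.6 in shfirefly over the 5 genes (SD, n = 3). LOX held 35.7%, 34.5% and 35.5% of that sum in the shSIRT1 libraries and 47.03%, 46.99% and 47.1% in the shfirefly libraries. LOXL2 held 43.1%, 43.8% and 42.4% in shSIRT1 and 31.96%, 31.8% and 31.9% in shfirefly. LOXL2 was thus the most abundant lysyl oxidase transcript per length in all 3 shSIRT1 libraries and LOX in all 3 shfirefly libraries. LOXL3 kept 21.6% ± 0.454 and 21.03% ± 0.0839 (SD, n = 3), and LOXL1 and LOXL4 together made up under 1% of either group's sum.

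**Figure D2:**
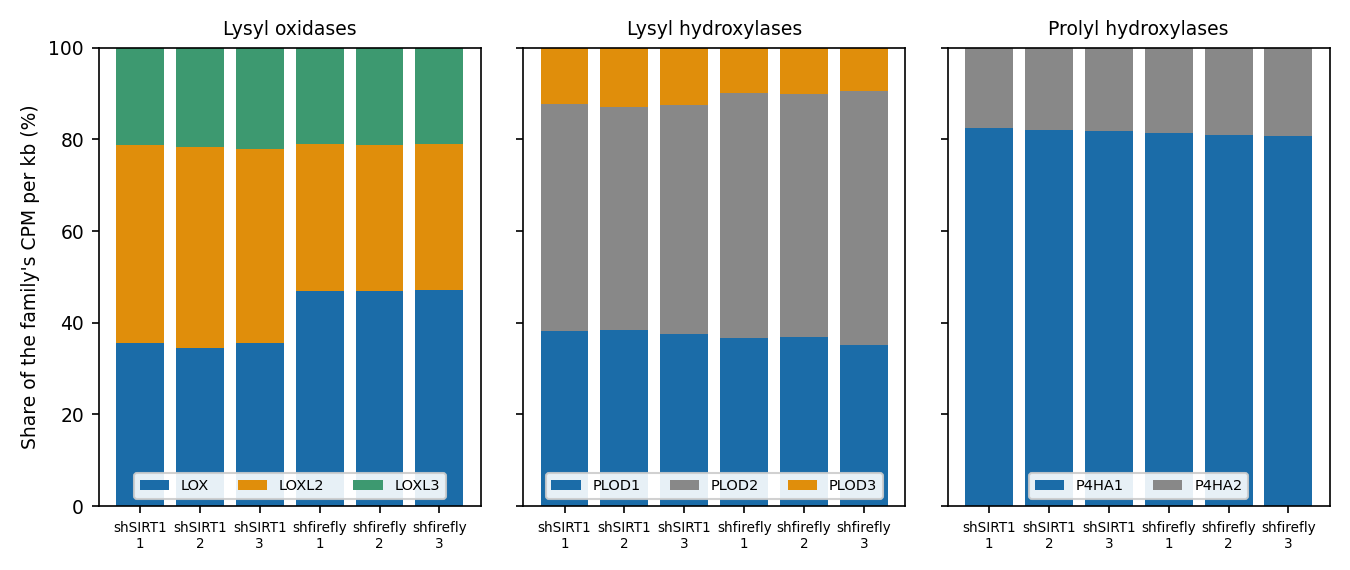
Share of each family's summed CPM per kb of exon held by each gene, in percent, in the 3 shSIRT1 libraries (left) and the 3 shfirefly libraries (right), with 1 panel per family; LOXL1 and LOXL4 are too low to be drawn. In the lysyl oxidase panel the LOX share is 34.5% to 35.7% in shSIRT1 and 46.99% to 47.1% in shfirefly.

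The lysyl hydroxylases fell in the order PLOD2, PLOD1, PLOD3. PLOD2, which hydroxylates lysines in the collagen telopeptides and so favours stable pyridinoline crosslinks, stood at 1212, 1145 and 1194 CPM in shSIRT1 and at 2237, 2238 and 2264 CPM in shfirefly. Both groups were tight and did not overlap, and shSIRT1 was 1.90-fold lower (log2 fold change -0.92 ± 0.04 SE, adjusted p = 1.6e-14, edgeR). PLOD2 lies on chromosome 3, reverse strand, at 146069440 to 146163653. PLOD1, the main hydroxylase of helical lysines and the gene mutated in kyphoscoliotic Ehlers-Danlos syndrome, stood at 654, 632 and 627 CPM in shSIRT1 and at 1069, 1087 and 994 CPM in shfirefly (log2 fold change -0.72 ± 0.04 SE, adjusted p = 1.9e-12, edgeR). It lies on the forward strand of chromosome 1 at 11934205 to 11975538.

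PLOD3, which besides lysyl hydroxylation adds glucose to hydroxylysine, had the smallest fall of the 8 called genes. It stood at 224, 227 and 223 CPM in shSIRT1 and at 305, 317 and 286 CPM in shfirefly. That put shSIRT1 1.35-fold lower, at a log2 fold change of -0.43 ± 0.04 (SE; edgeR adjusted p = 9e-09), and 17.3% of tested genes had a lower log2 fold change. PLOD3 lies on the reverse strand of chromosome 7 at 101205977 to 101218420. Summed over the 3 PLOD genes the level per length was 314 ± 6.28 CPM per kb in shSIRT1 and 545 ± 10.1 CPM per kb in shfirefly (SD, n = 3). PLOD2 held the largest share in every library, 49.3% ± 0.665 in shSIRT1 and 53.97% ± 1.36 in shfirefly, and PLOD3 held 12.6% ± 0.335 and 9.79% ± 0.334.

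Both catalytic subunits of the collagen prolyl hydroxylase fell, and which of them fell more depended on the GC content and length offset: without it P4HA2 had the lower log2 fold change, and with it P4HA1 (-1.03 for P4HA1 and -0.98 for P4HA2). P4HA1, the alpha subunit used most widely, stood at 430.04, 416 and 398 CPM in shSIRT1 and at 799, 806 and 711 CPM in shfirefly (log2 fold change -0.90 ± 0.05 SE, adjusted p = 5.2e-11, edgeR). P4HA2, the alpha subunit prominent in chondrocytes and bone cells, stood at 251, 248 and 241 CPM in shSIRT1 and at 504, 522 and 468 CPM in shfirefly (log2 fold change -1.01 ± 0.04 SE, adjusted p = 3e-14, edgeR). In neither gene did the groups overlap. P4HA1 spans 73007217 to 73096974 on chromosome 10 and P4HA2 spans 132191838 to 132295315 on chromosome 5, both on the reverse strand. The third alpha subunit gene, P4HA3, named for completeness after its values were seen, was barely expressed, at 0.770 ± 0.278 CPM in shSIRT1 libraries, against 0.652 ± 0.0805 CPM in shfirefly libraries (SD, n = 3), and did not pass (edgeR log2 fold change 0.22 ± 0.34 SE, adjusted p = 0.62).

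**Figure D3:**
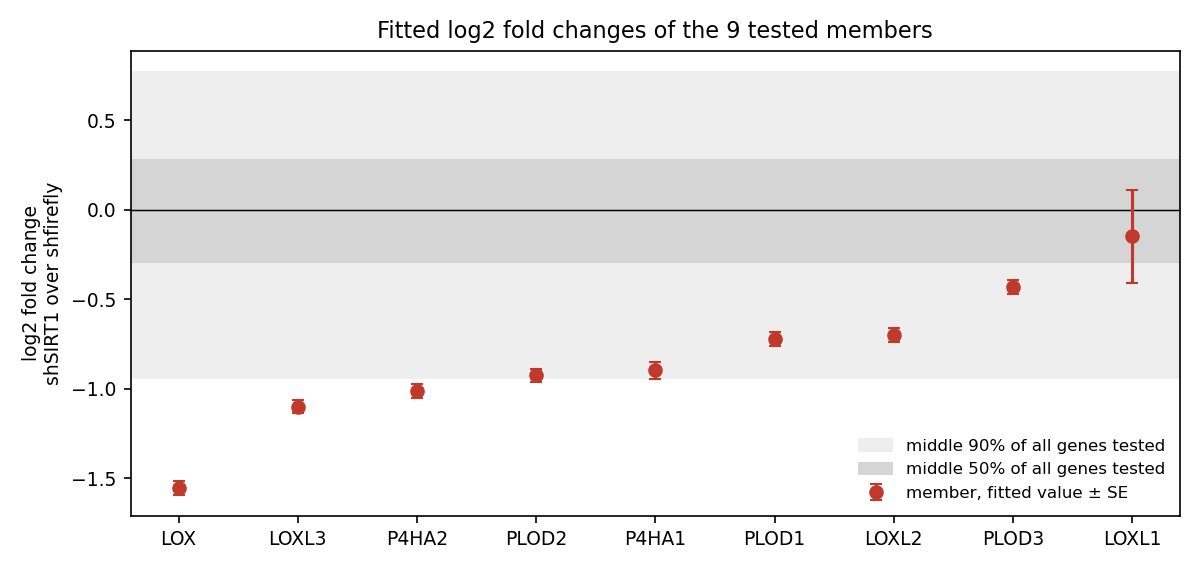
Fitted log2 fold changes of shSIRT1 over shfirefly for the 9 tested genes, ordered from the lowest, with bars of 1 SE; the light band spans the middle 90% of all tested genes (-0.94 to 0.77) and the dark band the middle 50% (-0.29 to 0.28). LOX at -1.55, LOXL3 at -1.10 and P4HA2 at -1.01 lie below the light band, and LOXL1 alone lies within the dark band.

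Per exon length the order of the members' levels in shSIRT1 cells was LOXL2, LOX, PLOD2, P4HA1, PLOD1, LOXL3, PLOD3, P4HA2 and LOXL1, with means of 225, 184, 155, 134, 119.8, 113, 39.6, 29.02 and 0.445 CPM per kb. In shfirefly cells the order was LOX, LOXL2, PLOD2, P4HA1, LOXL3, PLOD1, P4HA2, PLOD3 and LOXL1, with means of 539, 366, 294, 249.6, 241, 197, 58.6, 53.3 and 0.494 CPM per kb. Neighbours in these orders had library ranges that did not overlap, except P4HA1 with LOXL3 and P4HA2 with PLOD3, both in shfirefly. These lengths join all annotated exons of a gene, so a gene with many rare exons is placed too low on this scale.

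Ratios of counts between genes within a library need no scaling between libraries, and they showed how unequal the falls in counts were. They are not adjusted for GC content and length, which differ between genes. With that offset the log2 fold changes were -1.21 for PLOD2 and -0.62 for PLOD1, against -0.92 and -0.72 without it. For P4HA1 and P4HA2 they were -1.03 and -0.98, against -0.90 and -1.01. For LOXL3 and LOXL2 they were -1.02 and -0.60, against -1.10 and -0.70. The LOX to LOXL2 count ratio was 0.804, 0.766 and 0.815 in shSIRT1 libraries and 1.43, 1.43 and 1.43 in shfirefly libraries. The LOX to LOXL3 ratio averaged 2.08 ± 0.0603 in shSIRT1 libraries and 2.84 ± 0.0134 in shfirefly (SD, n = 3). Neither pair of groups overlapped, and the log2 differences were -0.85 ± 0.03 for LOX over LOXL2 and -0.45 ± 0.02 for LOX over LOXL3 (SE). The PLOD2 to PLOD1 ratio averaged 1.86 ± 0.0462 in shSIRT1 libraries and 2.14 ± 0.117 in shfirefly, and the PLOD2 to PLOD3 ratio 5.27 ± 0.198 and 7.44 ± 0.442 (SD, n = 3). P4HA2 and P4HA1 changed most alike, with a ratio of 0.596 ± 0.0120 in shSIRT1 and 0.646 ± 0.0141 in shfirefly, a log2 difference of -0.12 ± 0.02 (SE). Each ratio was written with the gene of larger fall (without that offset) on top, which sets its direction. In each of the 7 ratios within a family the groups did not overlap (exact permutation p = 0.1, two-sided, which is the least that 3 against 3 can give; 0.106 after adjustment over 17 ratios).

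**Figure D4:**
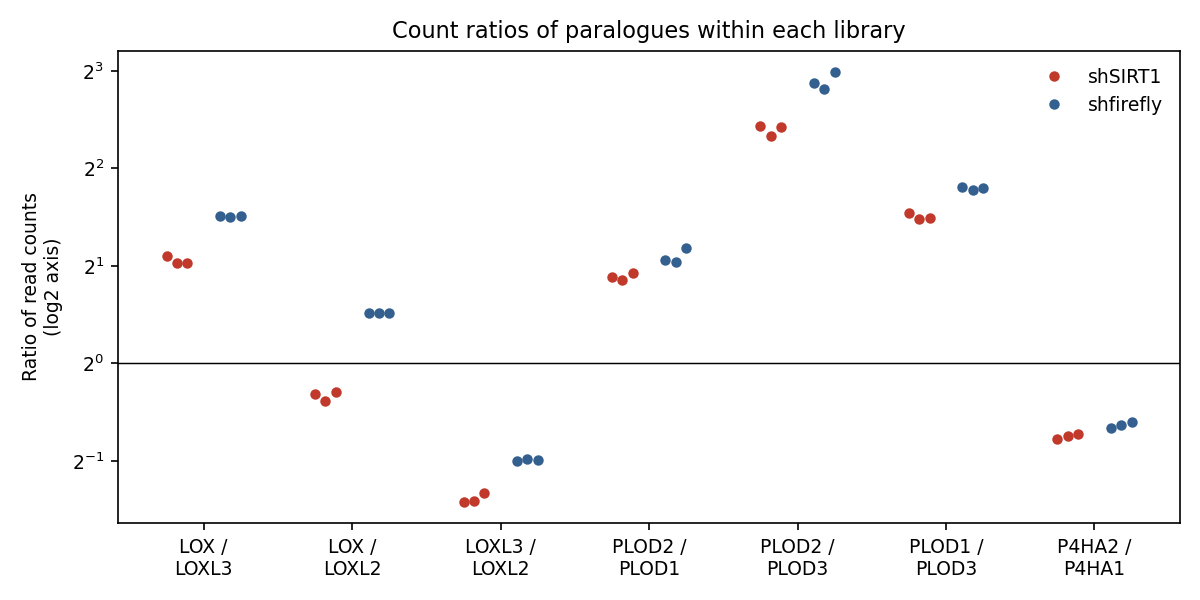
Ratio of read counts between members of the same enzyme family in each library, on a log2 axis, with the 3 shSIRT1 libraries left of the 3 shfirefly libraries. Each ratio has the gene with the larger fall on top, so that all 7 are lower in shSIRT1 follows from how they were written; the LOX to LOXL2 ratio lies on opposite sides of the line at 1, at 0.766 to 0.815 in shSIRT1 and 1.43 in shfirefly.

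The enzymes were also set against a main substrate and a shared subunit. COL1A1, the alpha chain that makes up most of type I collagen, was named after its values were seen and fell less than most of the enzymes, standing at 3674, 3551 and 3535 CPM in shSIRT1 and at 4688, 4899 and 4626 CPM in shfirefly (log2 fold change -0.40 ± 0.04 SE, adjusted p = 6e-09, edgeR). The ratio of LOX to COL1A1 counts averaged 0.285 ± 0.00474 in shSIRT1 libraries, against 0.631 ± 0.0180 in shfirefly (SD, n = 3), a log2 difference of -1.15 ± 0.03 (SE). The ratios to COL1A1 of 7 of the 8 called members did not overlap between the groups and were lower in shSIRT1 (exact permutation p = 0.1 each, two-sided). The exception was PLOD3, with ratios of 0.0627 ± 0.00150 in shSIRT1 and 0.0638 ± 0.00180 in shfirefly that overlapped (SD, n = 3; exact permutation p = 0.5, log2 difference -0.03 ± 0.03 SE). These ratios depend on the chain chosen, and ratios to other collagen chains were not taken. COL5A1, at a log2 fold change of -0.86, fell more than LOXL2 (-0.70), PLOD1 (-0.72) and PLOD3 (-0.43). It fell less than LOX, LOXL3, P4HA2, PLOD2 and P4HA1. P4HB, the disulfide isomerase that doubles as the partner subunit of the prolyl hydroxylase, fell 1.56-fold. The count ratio of P4HA1 to P4HB averaged 0.248 ± 0.00717 in shSIRT1 libraries and 0.296 ± 0.0115 in shfirefly (SD, n = 3).

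Most of the other collagen-modifying enzymes and their partners also fell. Of 10 genes, all tested, 8 fell, none rose and 2 did not pass (P4HA3 and COLGALT2, a collagen galactosyltransferase gene named because the count is small), with a median log2 fold change of -0.18. P3H3, which belongs to the prolyl 3-hydroxylase family and acts with PLOD1 in lysyl hydroxylation, stood at 115, 114 and 118 CPM in shSIRT1 and at 181, 186 and 178 CPM in shfirefly (log2 fold change -0.65 ± 0.04 SE, adjusted p = 7.5e-12, edgeR). P4HB stood at 1701, 1658 and 1659.9 CPM in shSIRT1 and at 2606, 2699 and 2505 CPM in shfirefly (log2 fold change -0.64 ± 0.04 SE, adjusted p = 5.5e-12, edgeR). Of 13 procollagen chaperone and export genes 8 fell, none rose and 5 did not pass, with a median of -0.23. Beside these counts, 26.0% of all tested genes fell and 26.8% rose. The collagen-binding matricellular protein gene SPARC had a log2 fold change of -0.70 ± 0.03 SE and FKBP10, a prolyl isomerase that promotes the PLOD2 reaction, one of -0.67 ± 0.04 SE (adjusted p = 7.1e-13 and 5.3e-12, edgeR).

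Most genes whose products cleave procollagen or the LOX proenzyme, or enhance that cleavage, fell. Of 8 genes 7 were tested, of which 6 fell and 1 rose, with a median of -1.07. Of those that fell, TLL2, named after its values were seen, had 20, 7 and 4 counts in shSIRT1 and 34, 17 and 19 in shfirefly. Its CPM ranges overlapped (log2 fold change -1.15 ± 0.45 SE, adjusted p = 0.038, edgeR). The call of TLL2 under the alternatives was not examined. Among all tested genes 26.0% fell and 26.8% rose. PCOLCE2, an enhancer of procollagen C-proteinase, was at 1.69, 1.14 and 1.41 CPM in shSIRT1 and at 6.71, 5.66 and 4.90 CPM in shfirefly, which left every shSIRT1 library well under the shfirefly ones (log2 fold change -2.02 ± 0.18 SE, adjusted p = 4.3e-09, edgeR). ADAMTS2, the procollagen N-proteinase, was at 18.9, 17.3 and 18.6 CPM in shSIRT1 and at 47.4, 46.1 and 48.6 CPM in shfirefly (log2 fold change -1.38 ± 0.06 SE, adjusted p = 7.6e-14, edgeR). BMP1, the C-proteinase that also releases active LOX from its propeptide, was not among the genes picked by size and was named after its values were seen; its log2 fold change was -0.50 ± 0.04 SE (adjusted p = 4.2e-10, edgeR). The gene that rose, TLL1, a BMP1 relative named in the same way, had 13, 20 and 16 counts in shSIRT1 and 3, 8 and 11 in shfirefly (adjusted p = 0.037, edgeR). Its call was lost in 7 of 16 alternatives, with DESeq2 (adjusted p = 0.10), with no filter, with the GC content and length offset and when shSIRT1 replicate 2 or 3 or shfirefly replicate 1 or 2 was left out (adjusted p up to 0.20).

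Of 10 genes for LOX-binding proteins and copper supply 8 were tested, of which 4 fell and none rose, with a median of -0.40. Over all tested genes 26.0% fell and 26.8% rose, and 4 called of 8 is near the 52.8% called in all. Fibronectin (FN1), which binds LOX in the matrix, fell 2.04-fold and EFEMP2 (fibulin-4), which tethers LOX to elastic fibres, fell 1.56-fold (adjusted p = 1.5e-09 and 5.6e-12, edgeR). The others that fell were the copper pump gene ATP7A and the copper importer gene SLC31A1, named after their values were seen, with log2 fold changes of -0.45 ± 0.07 and -0.34 ± 0.05 SE (adjusted p = 9.3e-06 and 3.3e-06, edgeR). Among the substrates, 8 of 12 fibrillar collagen and elastin genes were tested, 3 fell and none rose, with a median of -0.28. Here 3 called of 8 is below the 52.8% called over all tested genes. COL5A1 was at 1948, 1754 and 1789 CPM in shSIRT1 and at 3439, 3404 and 3109.9 CPM in shfirefly (log2 fold change -0.86 ± 0.05 SE, adjusted p = 4.7e-11, edgeR). COL1A2 had a log2 fold change of -0.53 ± 0.04 SE (adjusted p = 2.6e-10, edgeR). ELN, the elastin gene, also named after its values were seen, had 0 counts in shSIRT1 and 3, 1 and 0 in shfirefly libraries.

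Of 10 crosslinking enzyme genes outside the lysyl oxidases 5 were tested, with 2 lower, 1 higher and a median of 0.26; 3 of 5 is a share near the 52.8% called over all tested genes. Peroxidasin (PXDN), which joins collagen IV molecules, was at 0.391, 0.457 and 0.420 CPM in shSIRT1 and at 11.2, 9.77 and 10.1 CPM in shfirefly (log2 fold change -4.60 ± 0.17 SE, adjusted p = 1.2e-14, edgeR). Transglutaminase 2 (TGM2) averaged 2.26 ± 0.644 CPM in shSIRT1 libraries, against 4.43 ± 0.552 CPM in shfirefly libraries (SD, n = 3), and fell (edgeR log2 fold change -0.95 ± 0.18 SE, adjusted p = 0.00017). The coagulation transglutaminase gene F13A1, named after its values were seen, had 63, 48 and 30 counts in shSIRT1 and 15, 9 and 10 in shfirefly (log2 fold change 2.05 ± 0.33 SE, adjusted p = 1.9e-05, edgeR).

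**Figure D5:**
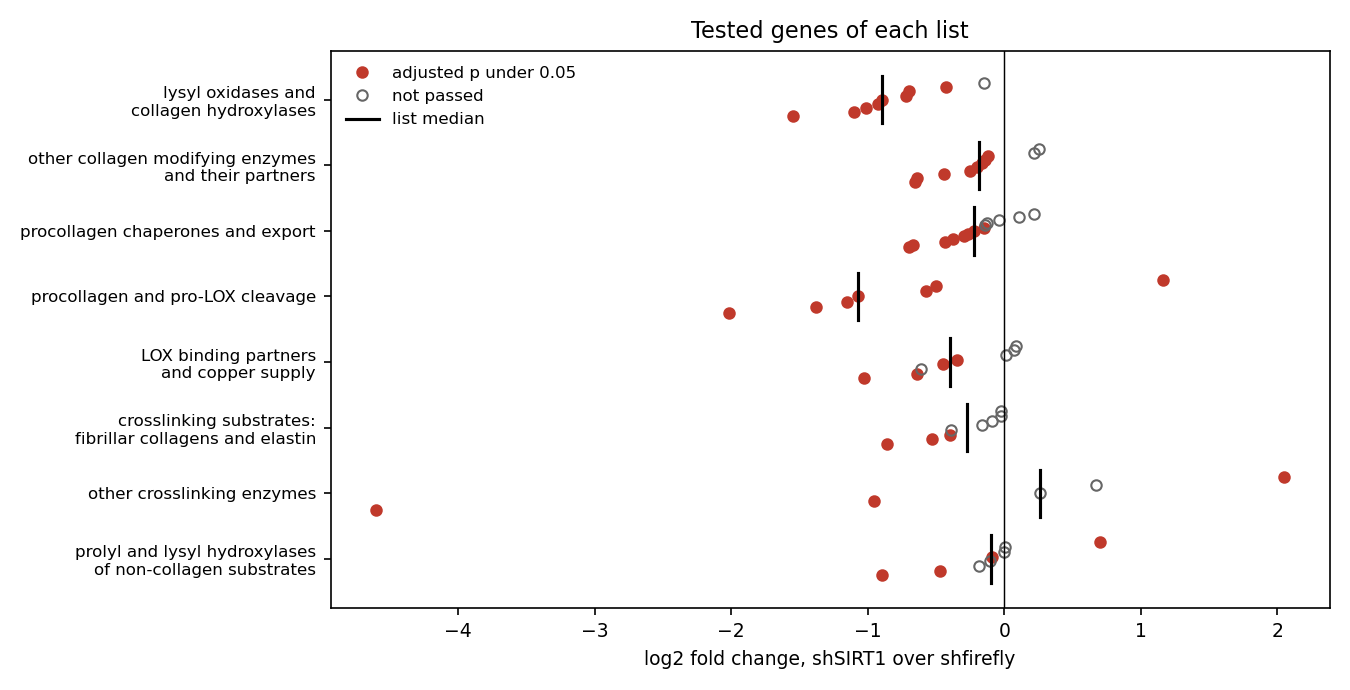
Log2 fold changes of shSIRT1 over shfirefly for every tested gene of the enzyme group (top row) and of 7 lists of related genes; filled points passed an adjusted p under 0.05, open points did not, and black bars are list medians. The median is -0.90 in the top row, -1.07 for procollagen and pro-LOX cleavage and between -0.40 and 0.26 in the other lists.

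Of 8 hydroxylases that use the same cofactors on substrates other than collagen, all tested, 3 fell, 1 rose and 4 did not pass, with a median of -0.10; 4 called of 8 is likewise near the 52.8% over all tested genes. EGLN3, a HIF prolyl hydroxylase, had a log2 fold change of -0.90 ± 0.05 SE and EGLN1, the main oxygen sensor of that family, one of -0.47 ± 0.06 SE (adjusted p = 8.6e-11 and 3.9e-07, edgeR). ASPH, an aspartyl hydroxylase named after its values were seen, had a log2 fold change of -0.09 ± 0.03 SE (adjusted p = 0.029, edgeR), a call lost in 4 of 17 alternatives: scaled by library totals it was 0.03 (adjusted p = 0.39), and it did not pass without shSIRT1 replicate 1 or 2 or without shfirefly replicate 1 (adjusted p = 0.072, 0.11 and 0.090). OGFOD1, a prolyl hydroxylase of a ribosomal protein, rose, at 52.3, 56.9 and 54.6 CPM in shSIRT1 and at 33.1, 31.9 and 35.7 CPM in shfirefly (log2 fold change 0.70 ± 0.06 SE, adjusted p = 8.3e-10, edgeR). Over all 7 lists 34 of 59 tested genes fell and 3 rose, with a median of -0.23, against 26.0% and 26.8% of all tested genes.

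The genes whose profile over the 6 libraries lay nearest to that of LOX, among 10810 genes averaging at least 5 CPM, were NRN1, DDIT3 and LINC01705. Their Euclidean distances were 0.106, 0.123 and 0.139 in log2 CPM relative to each gene's shfirefly mean. NRN1, which encodes the neuronal surface protein neuritin, averaged 79.6 ± 3.81 CPM in shSIRT1 libraries, against 235 ± 16.9 CPM in shfirefly libraries, and DDIT3, the stress transcription factor CHOP, 17.9 ± 0.220 CPM and 53.5 ± 4.14 CPM (SD, n = 3). Nearest to PLOD2 were ERO1A, HLA-C and OAF, at distances of 0.0768, 0.111 and 0.114. ERO1A, the oxidase that recharges protein disulfide isomerases in the endoplasmic reticulum, averaged 682 ± 16.3 CPM in shSIRT1 libraries, against 1273 ± 31.2 CPM in shfirefly libraries (SD, n = 3). HLA-C shares sequence with other class I genes, so its counts are uncertain.

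Of 8 tested genes on the other strand that share exon bases with a member, 6 fell, none rose and 2 did not pass. The shares over all tested genes were 26.0% lower and 26.8% higher. Those that did not pass were HTRA2 and SRFBP1. HTRA2, which shares 625 exon bases with LOXL3 (14.3% of its exon length), had a log2 fold change of 0.15 ± 0.08 SE (adjusted p = 0.12), and SRFBP1, which shares 138 with LOX, one of 0.21 ± 0.11 SE (adjusted p = 0.12, edgeR). Besides LOXL1-AS1, DOK1, which overlaps LOXL3, fell (log2 fold change -0.37 ± 0.04 SE, adjusted p = 9.2e-08) as did ZNHIT1, which overlaps PLOD3 (-0.27 ± 0.05 SE, adjusted p = 3.8e-05, edgeR). The noncoding gene AC090197.1, which overlaps LOXL2, fell (-0.81 ± 0.25 SE, adjusted p = 0.011) and so did ENSG00000237768, an antisense gene sharing 47 exon bases with P4HA1 (-1.29 ± 0.42 SE, adjusted p = 0.015, edgeR). ENTPD4, which shares 120 exon bases with LOXL2 on the same strand, had a log2 fold change of 0.02 ± 0.05 SE (adjusted p = 0.71, edgeR). P4HA2-AS1, antisense to P4HA2 over 548 exon bases, had 5, 8 and 7 counts in shSIRT1 and 30, 14 and 25 in shfirefly and fell (log2 fold change -1.74 ± 0.41 SE, adjusted p = 0.0013, edgeR), while P4HA2 itself had at least 6314 counts in every library. Whether counting used the strand is not given in the sources used here, and the part of shared reads in the members' values was not tested.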

How the data were processed

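RNA sequencing libraries of SW1353 cells (TruSeq Stranded mRNA kit, per the labels' protocols) fell into 3 shSIRT1 and 3 shfirefly samples, biological replicates per the design text. The submitters' processing notes name Trimmomatic, STAR, DESeq2 and GRCh38. Tool versions, read counter, annotation and strand setting: not given in the sources used here. The deposited table holds raw counts per gene, which entered every test. Its normalized counts, which the authors rounded to whole numbers (a score), were not used. The authors' deposited table also gives a log2 fold change and an adjusted p-value per gene; its log2 fold changes for the 8 members called here ran from -1.551 (LOX) to -0.43 (PLOD3).

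Genes were kept by edgeR 4.0.16 filterByExpr (16591 of 60691), scaled by TMM and tested with its quasi-likelihood method (robust glmQLFit, then glmQLFTest) on group alone, with Benjamini-Hochberg adjustment over all genes tested and a threshold of 0.05. Standard errors are the absolute log2 fold change over the square root of F. Replicate spread gave a common biological coefficient of variation of 0.0541. With counts simulated for the 16591 genes of this comparison, 99% of 100 genes changed by 1 on the log2 scale and 83% of 100 changed by 0.5 were recovered, with 16 false calls. That simulation gave every gene the common spread and changed far fewer genes than were called here, so recovery in the real data may differ. Pairs of libraries differed by a chi-square of 2.80 to 6.06 per gene inside a group and 57.4 to 89.9 across groups. Among shfirefly libraries, replicate 3 differed most from its own group (5.84 and 6.06) and least from the shSIRT1 libraries (57.4 to 66.9). Each library counted as 1 replicate because the design text calls them biological replicates, which these values cannot show. The fit had no replicate block, and the deviations of same-numbered libraries correlated at -0.010, -0.067 and 0.13.

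Exon lengths, positions and overlaps were read from GENCODE 29 (GRCh38), in which 58459 Ensembl identifiers were found when versions were ignored; promoters came from RefSeq on GRCh38.p14. Intervals and floors cover counting error only. The members, the 7 lists of related genes, the marker lists and the tests were chosen with earlier results of these data known. Genes named were the members, SIRT1, EPAS1, up to 2 rising and 2 falling called genes per list with the largest change and a mean of at least 1 CPM, and the 3 genes nearest in profile to LOX and to PLOD2; other related and overlapping genes named were chosen after their values were seen. Alternatives were other scalings, DESeq2 1.42.0, other filters, no robust estimation, a replicate block, an offset for GC content and length (natural splines, 5 degrees of freedom), and leaving out libraries.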

Additional observations from a re-analysis of the deposited data

How the results depend on the processing

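Under all 17 alternatives 8 members were called lower and none higher, and each of the 8 called members kept its direction and its call. LOX ranged from -1.70 to -1.43, LOXL3 from -1.15 to -0.98, PLOD2 from -1.21 to -0.80 and PLOD3 from -0.48 to -0.31 on the log2 scale, the highest adjusted p of the 8 genes being 1.2e-06 (PLOD3). The members' median was -0.95 with upper-quartile factors, -0.78 with library totals alone, -0.98 with the GC content and length offset and -0.98 with that offset and the replicate block together; it ranged from -0.93 to -0.86 when 1 library was left out. Members lower by at least 2-fold, 3 here, numbered 1 with library totals alone and 4 with the GC content and length offset. LOXL1, which never passed, changed sign with the GC content and length offset (0.0017), with that offset and the replicate block (0.012), without shSIRT1 replicate 2 (0.015) and without shfirefly replicate 2 (0.11), and ranged from -0.41 to 0.11 when 1 library was left out; the cause was not tested. Related genes called higher numbered 6 with library totals alone, 5 with no filter on low counts and 5 with the replicate block, against 3; they numbered 2 with DESeq2, the 1 CPM filter and the GC content and length offset, and 2 to 4 when 1 library was left out. Related genes called lower numbered 28 with library totals alone and 38 with upper-quartile factors, against 34. They numbered 31 to 36 when 1 library was left out. With the replicate block 4465 genes were lower and 4711 higher over all genes tested. The correlations of same-numbered libraries' deviations were -0.010, -0.067 and 0.13. The shSIRT1 replicates 1, 2 and 3 correlated best with shfirefly replicates 2, 1 and 3, so the numbers were not treated as pairs. Of 544 alternative values of 32 genes 540 kept direction and call, and the other 4 are those of LOXL1. The 32 were the tested members, SIRT1, EPAS1 and genes picked by size of change or by profile. Genes named after their values were seen were not among them. Of those, TLL1 lost its call in 7 of 16 alternatives and ASPH in 4 of 17. Low counts limit LOXL1 and LOXL4 among the members, the 12 of 71 related genes that were not tested, and P4HA3, TLL1 and TLL2.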
